A study of Oryctolagus cuniculus with 6 samples.

Results

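The miR-125 and miR-99/100 families were followed in hypertrophic scars of the rabbit ear. They were taken as the rows of the deposited miRNA table whose name, without copy number and arm, is miR-125a, miR-125b, miR-99a, miR-99b or miR-100, with both arms of each hairpin kept. This gave 7 of 467 rows, namely ocu-miR-125b-5p, ocu-miR-125b-3p, ocu-miR-125b-2-3p, ocu-miR-99a-5p, ocu-miR-99a-3p, ocu-miR-100-5p and ocu-miR-100-3p. The rule also searched for miR-125a and miR-99b, and no row of the table carried either name. Members were chosen by name and no measured value entered the rule, but the families were picked out with earlier results of these data known, so the tests below describe the members and are not independent evidence about them.

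The scars came from female New Zealand White rabbits wounded through the full skin thickness on the inner face of the ear. The ADSC-Exos group received exosomes, which are small vesicles that cells secrete, taken from adipose-derived stem cells (100 µg per 2 ml), and the saline group received saline, with 3 libraries in each group and all scars taken on day 21. By the design text the wounds were treated over the first 3 days, while the labels give 21 days of treatment. It assigns 3 rabbits to each group but does not tie each library to a rabbit, so the p-values may measure only the spread between these samples.

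miR-125b belongs to the family of lin-4, the first miRNA found in Caenorhabditis elegans, and together with miR-125a it shares the lin-4 seed, the stretch near the 5′ end that pairs with targets. It represses LIN28A and, in human cells, the apoptosis factor BAK1, and in mouse skin it holds epidermal stem cells back from differentiation. miR-99a and miR-100 are near-identical to each other, share a seed, and repress MTOR and IGF1R, with a described decline of this family in mouse skin wounds. In vertebrates their genes lie beside let-7 genes in conserved clusters. The RefSeq annotation of assembly mOryCun1.1 shows this order in the rabbit too: MIR125B-1 is followed by MIRLET7A-2 and MIR100 with 0 annotated genes in between, and MIR125B-2 is followed by MIRLET7C, with 1 pseudogene in between, and by MIR99A. Both miR-125b genes can give miR-125b-5p. The row miR-125b-2-3p is by its name the 3p arm of MIR125B-2, while the row miR-125b-3p carries no copy number and the sources used here do not give its hairpin.

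Values are in CPM, that is, reads per 1000000 miRNA reads in the same library. Each library held between 2260645 and 5102405 miRNA reads, as placed by the steps between low values, so that 1 read was worth 0.196 to 0.442 CPM. These totals are estimates, and read numbers and Poisson intervals below hold as far as they do. Mature miRNAs are of similar length, so CPM can be set side by side between them, but small RNA ligation captures different miRNAs with different efficiency. In bulk tissue, fewer cells of a type and less RNA per cell cannot be told apart. Of the markers of the labelled tissue, the fibroblast and mesenchyme miRNAs (2 of 3 listed names found, miR-199a and miR-214) summed to 113480 to 164725 CPM in ADSC-Exos, against 117972 to 143972 CPM in saline. Keratinocyte and epithelium miRNAs (3 of 7 names found, miR-141, miR-200c and miR-205) summed to 7913 to 12297 CPM in ADSC-Exos, against 8140 to 11335 CPM in saline. The column headers carry 1 date and 1 lane for all libraries.

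A single arm dominated the families. miR-125b-5p stood at 66026.3, 81450.3 and 13017.6 CPM in ADSC-Exos 1, 2 and 3, and at 48309.1, 68069.2 and 85150.7 CPM in saline 1, 2 and 3. ADSC-Exos 3 lay far below every other library, and ADSC-Exos 1 and 2 lay within the saline range. In mean level miR-125b-5p ranked 5 of all 467 rows, and it made up 81.5% of the families' reads in ADSC-Exos 3 and 91.4% to 96.4% in the other libraries. The 7 rows together took 6.85%, 8.45% and 1.60% of the ADSC-Exos libraries and 5.29%, 7.13% and 8.84% of the saline libraries.

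miR-99a-5p was next, with 2036.1, 2342.9 and 2107.6 CPM in ADSC-Exos, against 3589.8, 2496.6 and 2565 CPM in saline. All 3 ADSC-Exos values were below the lowest saline value, and saline 1 stood highest. miR-100-5p was at 388.4, 616 and 748.3 CPM in ADSC-Exos, against 850.1, 687.2 and 580 CPM in saline. These groups overlapped, with the lowest value in ADSC-Exos 1 and the highest in saline 1.

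The 3p arms, which are usually discarded when the 5p arm enters the silencing complex, were low throughout. miR-100-3p had 36.3, 31 and 34.3 CPM in ADSC-Exos, against 21.3, 39.3 and 59.6 CPM in saline, so that the ADSC-Exos values sat inside the wide saline range. miR-99a-3p had 23.4, 28.6 and 17.8 CPM in ADSC-Exos, against 19.4, 28.9 and 28.4 CPM in saline. The groups overlapped here as well, and ADSC-Exos 3 was lowest.

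miR-125b-2-3p stood at 31, 20 and 35.9 CPM in ADSC-Exos, against 71.8, 24 and 17.9 CPM in saline. Saline 1 was the highest library and saline 3 the lowest, so the full range of this row lay within saline. miR-125b-3p, the rarest member, was at 3.1, 8.1 and 21.2 CPM in ADSC-Exos, against 16, 8.4 and 8.4 CPM in saline. Here ADSC-Exos held both extremes: the value in ADSC-Exos 1 stands for 7 reads, with an exact Poisson 95% interval of 1.24 to 6.38 CPM, and that in ADSC-Exos 3 for 108 reads, with an interval of 17.4 to 25.6 CPM. Such intervals cover counting error only, and reads copied in PCR are not independent molecules. The interval of ADSC-Exos 3 did not meet that of ADSC-Exos 1 or of ADSC-Exos 2, at 5.46 to 11.6 CPM.

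**Figure D1:**
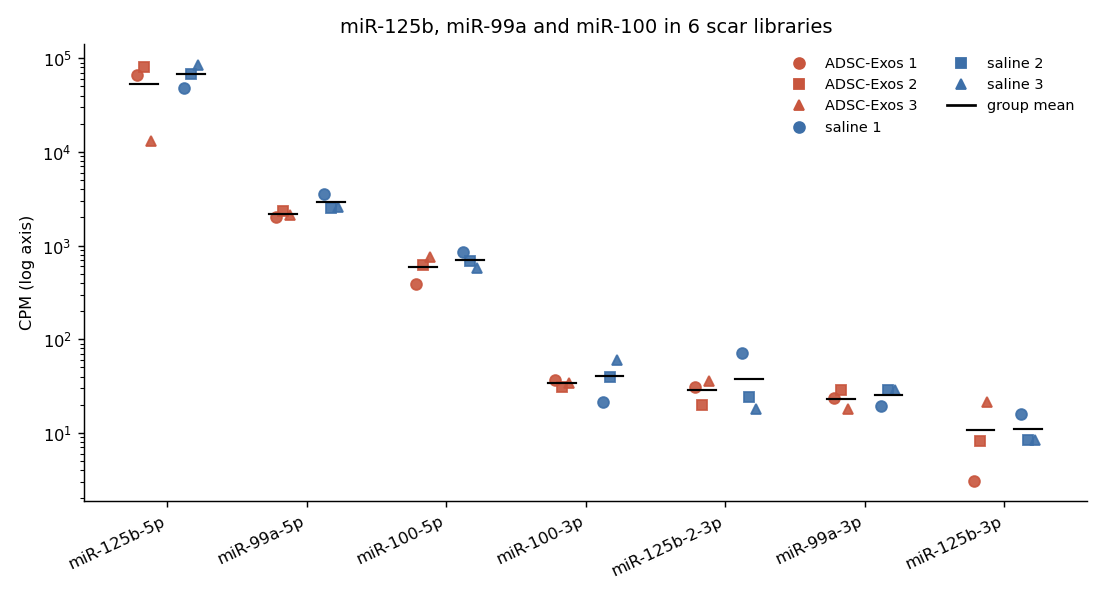
CPM of the 7 miRNAs in every library, on a log axis, with ADSC-Exos (red) left of saline (blue), a symbol for each replicate number and a black line at each group mean. miR-125b-5p in ADSC-Exos 3, at 13017.6 CPM, lies below its other 5 values, which run from 48309.1 to 85150.7 CPM.

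The order of levels was the same for the 5p arms in every library. miR-125b-5p exceeded miR-99a-5p in 6 of 6 libraries, by 23.9 times in mean CPM, and their ranges did not meet. miR-99a-5p exceeded miR-100-5p in 6 of 6 libraries, by 3.91 times in mean CPM, again without overlap of ranges. miR-100-5p in turn lay above every 3p arm in all libraries. Among the 3p arms the neighbours were not separated by their spread: miR-100-3p was above miR-125b-2-3p in 4 of 6 libraries, and miR-125b-2-3p above miR-99a-3p in 3 of 6. miR-99a-3p was above miR-125b-3p in 5 of 6 libraries, the exception being ADSC-Exos 3. Since miR-99a-5p and miR-100-5p are near-identical, and the sources used here do not say how reads that match both were handled, their separate values are uncertain to that extent.

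Between treatments, the study asks how exosome-treated scars differ from saline-treated scars, and no member of either family passed the test. miR-125b-5p averaged 53498 ± 35895 CPM in ADSC-Exos, against 67176 ± 18437 CPM in saline (SD, n = 3 each). Its log2 fold change, ADSC-Exos over saline on the log2(CPM + 1) scale, was -0.67 ± 0.61 (SE). Its 95% interval ran from -2.04 to 0.71, and limma gave an adjusted p of 0.996. This estimate rested on ADSC-Exos 3, without which it was 0.16 ± 0.28 (SE) and limma gave an adjusted p of 0.995.

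miR-99a-5p averaged 2162 ± 161 CPM in ADSC-Exos, against 2884 ± 612 CPM in saline (SD, n = 3 each). Its log2 fold change was -0.40 ± 0.27 (SE). Its 95% interval ran from -1.01 to 0.22, and limma gave an adjusted p of 0.996. miR-100-5p averaged 584 ± 182 CPM in ADSC-Exos, against 706 ± 136 CPM in saline (SD, n = 3 each). Its estimate on the log2 scale was -0.31 ± 0.34 (SE), or -0.04 when ADSC-Exos 1 was left out, and limma gave an adjusted p of 0.996 here too. Over leave-outs the estimate for miR-99a-5p lay between -0.49 without saline 2 and -0.23 without saline 1. Its sign could not turn there, because its groups did not overlap. That of miR-100-5p kept its sign in each leave-out too.

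The 3p arms had smaller estimates beside wide intervals, and limma gave each of the 4 an adjusted p of 0.996. The log2 fold change was -0.29 ± 0.63 (SE) for miR-125b-3p and -0.16 ± 0.53 (SE) for miR-125b-2-3p. For miR-100-3p it was -0.12 ± 0.42 (SE), and for miR-99a-3p it was -0.13 ± 0.37 (SE). The interval of miR-125b-3p, from -1.72 to 1.14, left room for changes of more than 2-fold either way. Both miR-125b 3p rows and miR-100-3p turned sign under quantile scaling, and each of the 4 rows turned sign when some single library was left out. miR-125b-2-3p stood at 0.42 without saline 1 and at 0.08 without ADSC-Exos 2, and miR-125b-3p at 0.31 without ADSC-Exos 1. miR-100-3p stood at 0.22 without saline 3, and miR-99a-3p at 0.04 without ADSC-Exos 3.

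Of the 7 members, 0 had an adjusted p of at most 0.05 in limma, beside 0% of the 224 miRNAs tested, whose mean had to reach 10 CPM, as it did for all 7 members. At an unadjusted p under 0.05 there were 0 members, beside 3.57% of all tested, and a limma-voom fit to the reads placed by the low-value steps called 0 of the 224 too. The groups did not overlap for 1 member, miR-99a-5p, beside 4.91% of all tested. In sign, 0 members were higher and 7 lower in ADSC-Exos, 3 of which turned sign under quantile scaling, with a median log2 fold change of -0.29, beside a median of -0.08 over all tested miRNAs, 88 of them higher and 136 lower. The arms of a hairpin share a source, so these signs are not 7 separate observations.

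**Figure D2:**
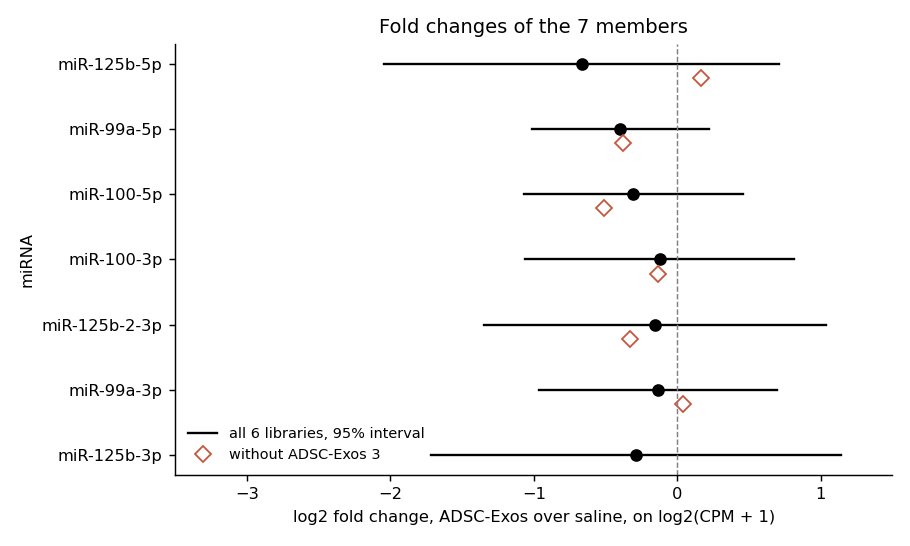
Log2 fold change of each member, ADSC-Exos over saline on log2(CPM + 1), from all 6 libraries with its 95% interval (black) and without ADSC-Exos 3 (open red diamonds). Every interval crosses 0, and the value of miR-125b-5p moves to 0.16 without ADSC-Exos 3, whereas miR-125b-3p has no diamond because its mean then misses the level filter of 10 CPM.

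The spread of miR-125b-5p over libraries came from ADSC-Exos 3. The SD of log2(CPM + 1) over all 6 libraries was 1.02, which ranked 12 of 224 miRNAs tested, beside a median of 0.44, and ranked 1 among the 20 most abundant. Over the 5 libraries without ADSC-Exos 3 the SD was 0.32, rank 146 of 224, beside a median of 0.40. In ADSC-Exos 3 its level was exceeded by 3.71-fold in saline 1 and by 6.54-fold in saline 3, the nearest and the farthest of the others. Relative to the next lowest library it stood at -1.89 on the log2 scale, which ranked 2 among the 224 miRNAs in ADSC-Exos 3, behind miR-744-5p at -1.93. ADSC-Exos 3 had the lowest value for 79 of the 224 miRNAs and the highest for 25, and it was more than 1 log2 unit below all other libraries for 10. With 66421 reads of miR-125b-5p there, counting error was small, at a Poisson 95% interval of 12919 to 13117 CPM.

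No other member stood as low in this library. Relative to the mean of the 6 libraries, ADSC-Exos 3 was at -1.996 log2 units for miR-125b-5p but at 1.10 for miR-125b-3p and 0.26 for miR-125b-2-3p. The cluster neighbours miR-100-5p and miR-99a-5p stood at 0.26 and -0.23 in the same library, and miR-99a-3p and miR-100-3p at -0.41 and -0.04. ADSC-Exos 1 went the other way for miR-125b, with miR-125b-3p at -1.34 and miR-125b-5p at 0.35. Saline 1 was high for miR-125b-2-3p, at 1.24, and for miR-99a-5p and miR-100-5p, at 0.54 and 0.44, whereas miR-100-3p stood at -0.70 there.

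**Figure D3:**
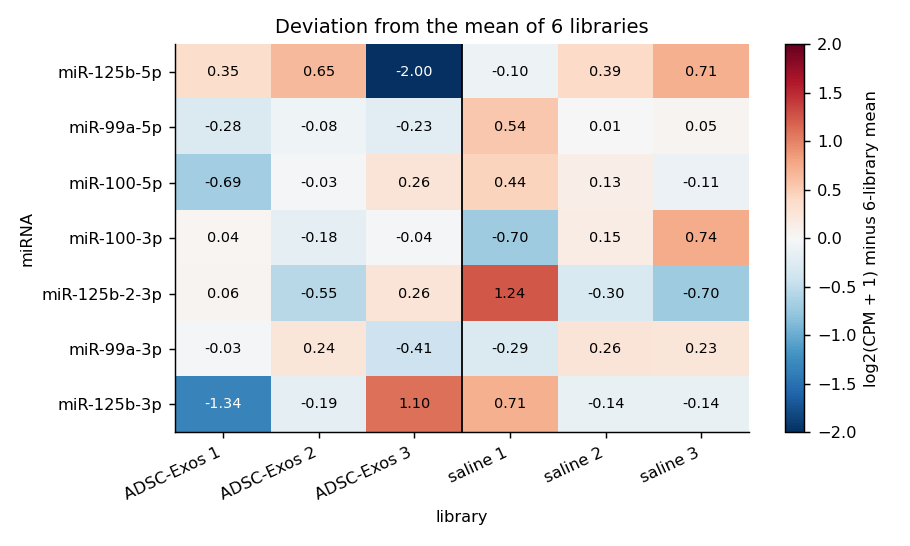
Level of each member in each library minus its mean over the 6 libraries, on log2(CPM + 1), with ADSC-Exos libraries left of saline libraries and the value printed in each cell (red above the mean, blue below). miR-125b-5p in ADSC-Exos 3 is the lowest cell, at -1.996, while both miR-125b 3p rows are above their means in that library.

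The ratio of arms within a library does not depend on the library total. There were 21299, 10056 and 614 reads of miR-125b-5p per read of miR-125b-3p in ADSC-Exos 1, 2 and 3, against 3019, 8104 and 10137 in saline 1, 2 and 3. ADSC-Exos thus held both the highest and the lowest ratio. With both 3p rows summed the ratio was 1936, 2899 and 228 in ADSC-Exos 1, 2 and 3, against 550.2, 2101 and 3238 in saline. The library ADSC-Exos 3 was again lowest, and saline 1 was next.

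As a log2 ratio of miR-125b-3p to miR-125b-5p, ADSC-Exos libraries averaged -12.31 ± 2.70 and saline -12.62 ± 0.93 (SD, n = 3 each). The difference of 0.31 had an exact two-sided permutation p of 0.9 over the 20 arrangements, of which the smallest possible is 0.1, and it was -1.22 without ADSC-Exos 3 and -0.04 without saline 3. Adjusted over the 6 ratios compared here, every p was 1, from a permutation test of n = 3 against 3. For the 57 pairs of rows that share a name and have both arms tested, the SD of the log2 ratio of 5p to 3p had a median of 0.58. It was 1.81 for miR-125b-5p over miR-125b-3p, rank 2, over the 6 libraries. This pair leaves out miR-125b-2-3p, and both genes can give miR-125b-5p, so it is not the arm ratio of a single hairpin. Its lowest 3p value, in ADSC-Exos 1, rests on 7 reads, and the summed 3p rows were not ranked. The SD was 0.74 for miR-100, rank 15, and 0.45 for miR-99a, rank 44. Without ADSC-Exos 3 the SD for miR-125b-5p over miR-125b-3p was 0.91, rank 3.

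For miR-99a and miR-100 the ratio of 5p to 3p was lower and spread less than that of miR-125b-5p to miR-125b-3p. It was 87.01, 81.9 and 118 for miR-99a in ADSC-Exos 1, 2 and 3, against 185, 86.4 and 90.3 in saline. For miR-100 it was 10.7, 19.9 and 21.8 in ADSC-Exos, against 39.9, 17.5 and 9.73 in saline. Saline 1 had the highest ratio in both hairpins, and the groups overlapped in both. The differences in log2 ratio of 3p to 5p were 0.26 for miR-99a (exact two-sided permutation p = 0.6) and 0.18 for miR-100 (exact two-sided permutation p = 1), which turned to -0.10 and -0.35 without saline 1. Without ADSC-Exos 1 that of miR-100 was -0.14.

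**Figure D4:**
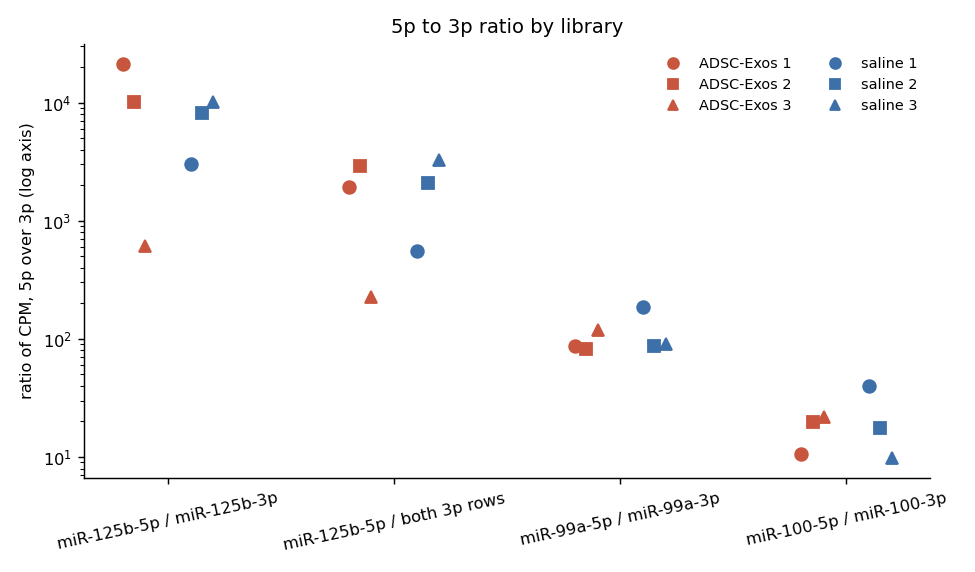
Ratio of CPM, 5p over 3p, in every library on a log axis, with ADSC-Exos (red) left of saline (blue) and a symbol for each replicate number. For miR-125b-5p over miR-125b-3p the ratio runs from 614 in ADSC-Exos 3 to 21299 in ADSC-Exos 1, while that of miR-99a stays between 81.9 and 185.

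The miR-125b rows of the 3p arm also moved apart from each other. miR-125b-2-3p was 10, 2.47 and 1.69 times as abundant as miR-125b-3p in ADSC-Exos 1, 2 and 3, and 4.49, 2.86 and 2.13 times in saline. It was the more abundant row in 6 of 6 libraries. The difference in log2 ratio was 0.20, with an exact two-sided permutation p of 0.9, and it was -0.56 without ADSC-Exos 1 and -0.04 without saline 3. The value of 10 rests on the 7 reads of miR-125b-3p in ADSC-Exos 1.

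miR-100-5p and miR-99a-5p kept a closer proportion. miR-99a-5p was 5.24, 3.80 and 2.82 times as abundant as miR-100-5p in ADSC-Exos, and 4.22, 3.63 and 4.42 times in saline. The SD of their log2 ratio over the 6 libraries was 0.30, which ranked 13 of 223 for miR-100-5p and 23 of 223 for miR-99a-5p, counted from the steadiest. Taken the other way, as the log2 ratio of miR-100-5p to miR-99a-5p, ADSC-Exos averaged -1.94 ± 0.45 against -2.03 ± 0.15 for saline (SD, n = 3 each). This difference of 0.09 had an exact two-sided permutation p of 0.8, and it was -0.13 without ADSC-Exos 3.

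Among the let-7 partners of these clusters, let-7a and let-7c, 5 rows were measured and 4 tested. Of these, 0 were higher and 4 lower in sign, 0 were called, and the median log2 fold change was -0.19, beside -0.08 over all tested. let-7a-5p, which several let-7a genes can give, was at 95456.8, 94293.7 and 93601.5 CPM in ADSC-Exos, against 110797, 106957 and 72290 CPM in saline, a log2 fold change of -0.01 ± 0.23 (SE). let-7c-5p, encoded beside miR-99a, was at 23263.3, 22537.5 and 19469.8 CPM in ADSC-Exos, against 28356.8, 28354.2 and 22615 CPM in saline, a log2 fold change of -0.28 ± 0.23 (SE). In ADSC-Exos 3 let-7a-5p was lowest of its group and let-7c-5p lowest of all libraries, each close to the next value of the group. let-7a-3p was at 50.4, 39.4 and 21 CPM in ADSC-Exos, against 33.3, 35.8 and 58.3 CPM in saline, and let-7c-3p at 54.9, 30.8 and 15.7 CPM in ADSC-Exos, against 27.1, 37.9 and 35.8 CPM in saline. Both 3p rows were lowest of all libraries in ADSC-Exos 3, as miR-125b-5p was. The row let-7a-2-3p, named for the copy beside MIR125B-1, was at 3.4 to 4.9 CPM and was not tested.

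The let-7c-5p to miR-99a-5p proportion was steady, with an SD of the log2 ratio of 0.21. On the same count this was rank 6 of 223 for miR-99a-5p and rank 16 for let-7c-5p. For let-7c-5p with let-7a-5p the SD was 0.19, rank 12 for let-7c-5p. How reads that match several let-7 rows were handled is not given, so the separate let-7 values are uncertain to that extent. The SD of the log2 ratio was 1.08 for miR-125b-5p with let-7a-5p, 0.93 with let-7c-5p, 1.24 with miR-100-5p and 1.003 with miR-99a-5p. For miR-125b-5p these were ranks 139, 75, 172 and 105 of 223. With the 3p rows of the partners the SD was smaller, at 0.63 for let-7a-3p (rank 13 of 223) and 0.64 for let-7c-3p (rank 14). Counted from the partner, miR-125b-5p ranked only 124 for let-7a-3p and 109 for let-7c-3p. Without ADSC-Exos 3 these SDs were 0.53, 0.47, 0.62 and 0.57 for the 5p rows and 0.28 and 0.44 for the 3p rows. The median SD to miR-125b-5p over 217 non-members was then 0.49, so most of these pairs were not closer than usual. The ratio of miR-125b-5p to miR-99a-3p, a pair singled out after values were seen, had an SD of 0.79 over all libraries. This was rank 37 of 223 for miR-125b-5p and rank 186 for miR-99a-3p. Without ADSC-Exos 3 the SD of this pair was 0.15.

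The miRNAs most like each 5p arm were those whose log2 ratio to it had the smallest SD over the 6 libraries, among 217 non-members. For miR-125b-5p these were miR-193b-5p (0.42), miR-342-3p (0.42), miR-150-5p (0.43), miR-128b-3p (0.51) and miR-128a-3p (0.52), where the median was 1.01. miR-128a-3p and miR-128b-3p are near-identical and their separate values are uncertain. All 5 were lowest in ADSC-Exos 3, beside 79 of all 224 miRNAs tested. The choice by a steady ratio to miR-125b-5p favours such rows, so this is not a separate result. miR-150-5p, a lymphocyte miRNA, for example stood at 756.4, 870.8 and 269.9 CPM in ADSC-Exos, against 993.9, 1067.9 and 1000.3 CPM in saline. Without ADSC-Exos 3, 0 of the 5 were among the nearest 5, and they ranked between 45 and 76.

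For miR-99a-5p the nearest were miR-185-5p (0.09), miR-502a-3p (0.14), miR-374a-5p (0.17), miR-363-3p (0.20) and miR-103a-3p (0.21), where the median was 0.53. For miR-100-5p they were miR-10a-5p (0.13), miR-10b-5p (0.15), miR-22-3p (0.23), miR-185-5p (0.26) and miR-26a-5p (0.27), where the median was 0.63. miR-10b-5p was at 2471.4, 3108.9 and 3752.9 CPM in ADSC-Exos, against 4791, 3367.2 and 2809.4 CPM in saline, with the same lowest and highest libraries as miR-100-5p.

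By level, miR-125b-5p stood between let-7a-5p and miR-27b-3p. let-7f-5p and let-7a-5p, the next above, averaged 109664 ± 5979 and 94451 ± 938 CPM in ADSC-Exos, against 106069 ± 11578 and 96681 ± 21211 CPM in saline (SD, n = 3 each). miR-27b-3p and miR-16b-5p, the next below, averaged 61497 ± 9158 and 46188 ± 19775 CPM in ADSC-Exos, against 55443 ± 16014 and 51596 ± 4234 CPM in saline (SD, n = 3 each). The range of miR-125b-5p, from 13017.6 to 85150.7 CPM, overlapped those of let-7a-5p, miR-27b-3p and miR-16b-5p.

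Markers of other cell types varied among libraries beside these results. Leukocyte miRNAs (5 of 5 names found, 9 rows) summed to 10114.8, 6663.8 and 7574.9 CPM in ADSC-Exos, against 7961.3, 10091.4 and 9988.4 CPM in saline. Their rows did not move together in ADSC-Exos 3, where miR-150-5p was lowest and miR-155-5p highest of all libraries, at 269.9 and 3704.1 CPM. Keratinocyte and epithelium miRNAs were lowest in ADSC-Exos 3, at 7913 CPM, but 4 of their 6 rows were higher and 2 lower in ADSC-Exos in sign. Red blood cell miRNAs (3 of 3 names found) summed to 109 to 472 CPM in ADSC-Exos, against 443 to 853 CPM in saline, with ADSC-Exos 3 lowest. Fibroblast and mesenchyme miRNAs were highest in ADSC-Exos 3, at 164725 CPM, but their rows did not move together. miR-199a-3p made up most of that sum, at 148230 CPM, and miR-214-5p was highest there too. miR-199a-5p was highest in saline 3, at 30001.3 CPM, and miR-214-3p in saline 1, at 42.2 CPM. Smooth muscle miRNAs (2 of 2 names found, miR-143 and miR-145) summed to 14505 CPM in ADSC-Exos 1, 49206 CPM in ADSC-Exos 2, against 67009 CPM in ADSC-Exos 3, and to 38229 to 70397 CPM in saline. Cartilage miRNAs (miR-140, 2 rows) summed to 1369 to 7300 CPM in ADSC-Exos, against 1921 to 4447 CPM in saline, and skeletal muscle miRNAs (4 of 4 names found) to 609 to 2375 CPM in ADSC-Exos, against 1453 to 2133 CPM in saline. In these lists 0 rows were at 0 in every library, and the part of these cell types in the values of miR-125b-5p was not tested.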

How the data were processed

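Small RNA from rabbit ear scars was sequenced, with adaptors added to both ends of the RNA, per the labels' protocols. Tools listed in the submitters' processing notes, without roles, are DESeq2 1.30.1, HTSeq 2.0.3, STAR 2.7.6a, Trimmomatic 0.40 and FastQC 1.0.0. No coordinates are printed, since genome build, miRNA annotation, use of strand and treatment of reads matching several miRNAs are not given in the sources. The authors deposited CPM to 1 decimal for 467 miRNAs, 1 column per library, each summing to about 1000000. Scaling by the total makes every miRNA relative to the others. The read totals were taken as those for which values are whole reads within 0.05 CPM, which held for 2378 of 2382 values above 0. Rounding leaves this tolerance wide, so that 22.6% to 51.0% of arbitrary values would pass it, and ADSC-Exos 3 had 2 tied totals. By a stricter measure, within 0.1 read of a step fitted to the low values, 32.5% to 89.2% were whole, under the 95% required for a count test, so limma-voom alone was run on these reads.

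Groups were compared with limma 3.58.1 in R 4.3.3 (limma-trend, two-sided, group as the only term) on log2(CPM + 1) for the 224 miRNAs whose mean reached 10 CPM, with Benjamini-Hochberg adjustment over all 224. This scale understates the change of low miRNAs. Ratios were compared by exact permutation of 3 against 3 libraries. The planned count test was replaced by this fit because the values are CPM. The fit was also run on simulated data with planted changes, where noise was drawn independently for every miRNA and library. That simulation held no outlying library such as ADSC-Exos 3, so it is not used as support for the absence of calls. Named beside the members were let-7 rows of the clusters and the 5 miRNAs with the steadiest ratio to a member. The miRNAs next above and below miR-125b-5p and marker lists were named too. The planned rule gave companions for miR-125b-5p only. Those of miR-99a-5p and miR-100-5p, and the ratios within and between miR-99a and miR-100, were chosen after values were seen. So were the singled-out miR-744-5p, miR-150-5p, miR-155-5p and miR-10b-5p, the single rows of miR-199a and miR-214, and the pair of miR-125b-5p with miR-99a-3p. Members and lists were chosen with earlier results of these data known.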

Additional observations from a re-analysis of the deposited data

How the results depend on the processing

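The alternatives were median-of-ratios and quantile scaling, a pseudocount of 0.1 or of 10, testing all rows, testing rows from a mean of 100 CPM up, limma-voom on reads, the replicate number as a block and each library left out, with the filter applied anew. Chosen after seeing the data were miR-125b-5p taken out of the library totals, the summed 3p ratio, the ratios within and between miR-99a and miR-100, and spreads without ADSC-Exos 3. The count of miRNAs called stayed at 0 under every alternative that kept all libraries and ran from 0 to 4 over leave-outs (4 without ADSC-Exos 1, 1 without saline 3), none of them a member. Quantile scaling, which moved the median of all miRNAs from -0.08 to 0.0033, turned miR-125b-3p to 0.026, miR-125b-2-3p to 0.0011 and miR-100-3p to 0.0073; the cause was not tested. Over leave-outs the log2 fold change ran from -1.16 to 0.16 for miR-125b-5p, from -0.43 to 0.31 for miR-125b-3p, from -0.55 to 0.42 for miR-125b-2-3p, from -0.51 to 0.22 for miR-100-3p, from -0.51 to -0.04 for miR-100-5p, from -0.31 to 0.038 for miR-99a-3p and from -0.49 to -0.23 for miR-99a-5p. The log2 ratio difference ran from -1.22 to 1.34 for miR-125b-3p to miR-125b-5p, from -0.56 to 0.72 for miR-125b-2-3p to miR-125b-3p, from -0.61 to 1.26 for the summed 3p rows to miR-125b-5p, from -0.35 to 0.66 for miR-100-3p to miR-100-5p, from -0.10 to 0.45 for miR-99a-3p to miR-99a-5p and from -0.13 to 0.32 for miR-100-5p to miR-99a-5p. miR-125b-3p had no value without saline 1 or ADSC-Exos 3, where its mean missed 10 CPM, and the 3p rows had none at 100 CPM. Adjusted p for members ran from 0.546 to 0.9995 over all alternatives in limma. Deviations of same-numbered libraries from their group means had correlations over miRNAs of -0.11, -0.018 and -0.13. Those of differently numbered libraries ran from -0.237 to 0.235. With 3 libraries in each group such values cannot tell a pairing from none, and the replicate block goes by number only. With it miR-125b-5p had a log2 fold change of -0.67 and an adjusted p of 0.996 in limma, 0 miRNAs were called, and the ratio of miR-125b-3p to miR-125b-5p had an exact sign-flip p of 1, where the smallest possible is 0.25. Depth limits miR-125b-3p most, where 3 reads are worth 0.588 to 1.33 CPM.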
